A study of Sus scrofa with 2 samples.

Results

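Spermatid and sperm genes serve the last phase of male germ cell development, in which spermatids build the head, tail and energy supply of the sperm. They were taken as 34 named genes: 4 of nuclear packaging, 11 of the acrosome and fertilisation, 10 of the flagellum, 3 of sperm energy metabolism, and 6 of cell shaping and signalling. They are a small share of the 16509 protein-coding genes with a symbol in the pig gene table, in which 33 of the 34 were found. SPEM1, which in mouse is needed to shed the cytoplasm of the spermatid, was not in that table and had no row in either peak list, so it is in no share below. The members are a list of names and were picked by no cutoff on a measured value, but with earlier results of these data known.

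The data were peak lists from CUT&Tag, in which an antibody directs a transposase to a chromatin protein and the released fragments are sequenced. The antibody was against ZBTB16, also called PLZF, which is a transcription factor with zinc fingers and marks undifferentiated spermatogonia. The cells were wild-type immature spermatogonia of pig testis, 100000 per library. The 2 libraries, replicate 1 and replicate 2, form 1 group with no second condition, and the labels give neither the age of the animals nor whether the libraries came from separate animals. The study set out to find the genes that ZBTB16 binds in these cells. Peak lists carry no expression values, so the cell type could not be checked against its markers.

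After meiosis the round spermatid replaces its histones, first with transition proteins and then with protamines. In the same period the Golgi apparatus forms the acrosome, an enzyme-filled cap over the nucleus, and the centriole gives rise to the flagellum with its outer dense fibres and fibrous sheath. Glycolysis along the flagellum uses enzymes encoded by genes that are active in germ cells in place of the widely expressed ones. Spermatogonia stand several divisions before this stage, and most of the genes described here are known to be switched on during or after meiosis.

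Replicate 1 held 10273 peaks and replicate 2 held 7301, of which 60.8% and 64% were of the promoter class, which here reaches from the transcription start site (TSS) to 2995 bp upstream. The fold enrichment of a peak is the authors' linear ratio over a background whose source is not named. The median fold over promoter peaks was 5.33 in replicate 1 and 5.25 in replicate 2. No source used here states the sequencing depth. From the deposited fold and p-value the fragments at each summit were recovered, with a median of 19 and 16 over promoter peaks. Intervals on fragments are exact 95% Poisson intervals and cover counting error only. All coordinates are on Sscrofa11.1.

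Promoter peaks were found in both libraries at 4 of the 33 genes: CATSPER2, TEKT1 and ODF2 of the flagellum, and HOOK1 of cell shaping. This is 12.1%, against 20.8% of all protein-coding genes. Another 3 had a promoter peak in 1 library only, ZPBP and AKAP3 in replicate 1 and IZUMO1 in replicate 2, where the share over the whole gene table was 16.1%. Counting every class of peak, 9 of the 33 had an assigned peak in at least 1 library (27.3%, against 50.7% of all genes) and 7 had one in both (against 28.2% of all genes). The other 24 genes had no assigned peak. No test was made of these shares, since the genes were chosen with earlier results of these data known.

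**Figure D1:**
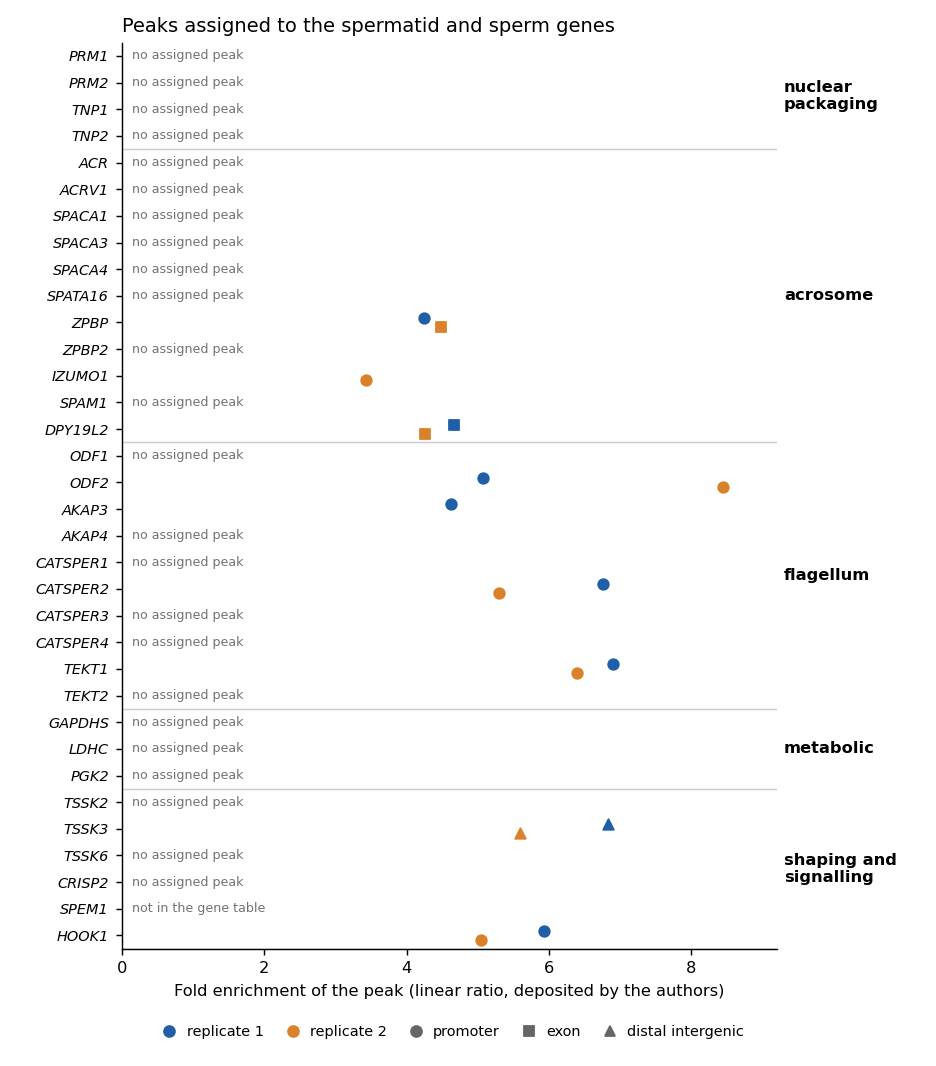
Fold enrichment (horizontal axis, linear ratio) of every peak assigned to the 34 genes, 1 row per gene, grouped by role, with replicate 1 in blue and replicate 2 in orange. Circles are promoter peaks, squares exon peaks and triangles distal intergenic peaks. The nuclear packaging and metabolic rows hold no peak, and the highest value is 8.45 at ODF2 in replicate 2.

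The nuclear packaging genes had no assigned peak in either library. The genes for the protamines PRM1 and PRM2 and the transition protein TNP2 lie in 1 cluster on chromosome 3, with PRM3 between PRM2 and TNP2, from 31861087 to 31871530, and TNP1 lies alone on chromosome 15 (119037492 to 119038099). The peak nearest to the protamine cluster in replicate 2 was at the promoter of SOCS1, a cytokine signalling inhibitor, 9.54 kb from TNP2, 16.1 kb from PRM2 and 19.5 kb from PRM1. In replicate 1 the nearest was a 3′ UTR peak of RMI2, 77.5 kb from PRM1. TNP1 was 335 kb from the nearest peak in both libraries, at the promoter of RPL37A. With 3 of the 4 genes in 1 cluster, they are not independent of each other.

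Among the 11 acrosome genes, 3 had an assigned peak in at least 1 library (27.3%, against 50.7% of all genes). ZPBP and DPY19L2 had one in both libraries, over the first exon, and IZUMO1 in replicate 2. In both libraries it was thus 2 of the 11, against 28.2% of all genes. ZPBP encodes an acrosomal protein that binds the zona pellucida, and its TSS is at 136186744 on chromosome 9 (minus strand). In replicate 1 its peak (136186458 to 136186898) spanned the TSS and was of the promoter class, with a fold of 4.25 and 11 summit fragments (5.49 to 19.7). In replicate 2 the peak (136186287 to 136186646) began 98 bp inside the gene and was classed as exon 1, with a fold of 4.48 and 11 fragments (5.49 to 19.7). The peaks overlapped by 189 bp and their summits lay 251 and 295 bp downstream of the TSS. The class at ZPBP followed the edge of the peak, and both libraries had a peak at this place.

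DPY19L2 encodes a protein of the inner nuclear membrane that anchors the acrosome to the nucleus, and it starts at 38693951 on chromosome 18. It had an exon 1 peak in replicate 1 (38694128 to 38694455) with a fold of 4.67 and 12 fragments (6.2 to 21). In replicate 2 the exon 1 peak (38694077 to 38694388) had a fold of 4.26 and 10 fragments (4.8 to 18.4). The overlap was 261 bp, and neither peak reached the TSS, their near edges being 177 and 126 bp downstream of it. All 4 peaks of ZPBP and DPY19L2 were below the median of promoter peaks in their library, at percentiles from 16.6 to 29.9. When assigned peaks of any class within 1 kb of the TSS were counted, a rule added after these exon peaks were seen, 6 of the 33 genes had one in both libraries (against 24.1% of all genes): the 4 above with ZPBP and DPY19L2.

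IZUMO1 encodes the sperm protein that binds JUNO on the egg. Its only peak, in replicate 2, lay upstream of the gene on chromosome 6 (54076780 to 54077053), with a fold of 3.43, 11 fragments (5.49 to 19.7) and a q-value of 0.0118. This was at percentile 1.31 of the promoter peaks of replicate 2, among the weakest there. The peak ended 461 bp before the TSS of IZUMO1 and 378 bp from the edge of FUT1, so it lay between both genes. In replicate 1 the nearest peak was 18.3 kb from IZUMO1. Of the 943 promoter peaks of replicate 2 with 10 to 12 fragments, 71.3% overlapped a replicate 1 peak. These were matched on fragments and not on fold, so the share is not that of peaks as weak in fold as this one.

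The other 8 acrosome genes had no assigned peak. They were ACR, the protease acrosin; ACRV1, an acrosomal matrix protein; SPACA1, which in mouse is needed to shape the acrosome; and SPACA3, a lysozyme-like protein. The rest were SPACA4, a membrane protein of fertilisation, SPATA16, a Golgi protein of acrosome formation, ZPBP2, the paralog of ZPBP, and SPAM1, a hyaluronidase. The nearest peaks lay at a median of 68.5 kb from these genes in replicate 1 (9.57 to 149 kb) and 70.3 kb in replicate 2 (12.2 to 190 kb).

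The flagellum held 3 of the 4 genes with promoter peaks shared by the libraries, 3 of its 10 (30%, against 20.8% of all genes), and each encodes a protein of a different structure. The side of the background on which this share fell depended on the rule: with any peak within 1 kb of either gene end it was 2 of 10, against 29% of all genes. CATSPER2 is a pore subunit of the calcium channel that drives hyperactivated swimming. It had a promoter peak from 127813637 to 127814936 on chromosome 1 in replicate 1, with a fold of 6.76 and 25 fragments (16.2 to 36.9). In replicate 2 the peak ran from 127813684 to 127814583, with a fold of 5.3 and 16 fragments (9.15 to 26). The smaller peak lay wholly within the larger, with its summit 79 bp downstream of the TSS. The summit of the larger was 9 bp upstream. Both peaks also covered the near edge of PDIA3, an endoplasmic reticulum chaperone gene whose edge lies 253 bp before CATSPER2. Each peak was assigned to 1 gene, so the data do not divide this signal between CATSPER2 and PDIA3. The other pore subunits, CATSPER1, CATSPER3 and CATSPER4, had no assigned peak, and their nearest peaks were 13.4, 101 and 16.7 kb away in replicate 1 and 18.8, 56.1 and 16.7 kb away in replicate 2.

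TEKT1 is a tektin, a filament protein inside the microtubules of cilia and flagella. Its peak on chromosome 12 (50549753 to 50550761) had a fold of 6.9 and 27 fragments (17.8 to 39.3) in replicate 1. In replicate 2 the peak (50549764 to 50550594) had a fold of 6.39 and 19 fragments (11.4 to 29.7). These folds stood at percentiles 83.1 and 78.9 of the promoter peaks of their libraries. The summits lay 494 and 504 bp downstream of the TSS used by the authors (50550495, minus strand), so most of the signal lay inside the gene. The gene table places the end of TEKT1 farther upstream, at 50552083. A further peak in replicate 2 only lay inside the far end of TEKT1 (fold 5.47, 10 fragments). It was listed with the gene GGT6 and the class 3′ UTR. In the gene table GGT6 lies 11610 bp from TEKT1, so the peak was not within GGT6. TEKT2, a second tektin, had no assigned peak, with the nearest peaks 55.4 and 60.5 kb away in replicates 1 and 2.

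ODF2 encodes a protein of the outer dense fibres that is also part of the centriole in other cells. In replicate 1 it had a broad promoter peak on chromosome 1 (268856689 to 268857701, 1013 bp) with a fold of 5.08, 22 fragments (13.8 to 33.3) and a background of 3.53 fragments. In replicate 2 the peak was narrower (268856911 to 268857439, 529 bp), with a fold of 8.45, 26 fragments (17 to 38.1) and a background of 2.2 fragments. The replicate 2 peak lay wholly within the replicate 1 peak. It was at percentile 96.7 of its library's promoter peaks, against 42.8 in replicate 1, and its fold was 1.66 times that of replicate 1. Of the 3439 genes with a promoter peak in both libraries, 9, ODF2 among them, had a ratio as high, and the median ratio was 0.936. The intervals on the fragments overlapped, and the background was lower in replicate 2. The authors assigned the peaks to different transcripts, with TSS at 268856755 and 268857317. ODF1, another outer dense fibre gene, had no assigned peak, and a distal peak of LOC102167349 lay 28.7 kb away in replicate 1 and 28.8 kb in replicate 2.

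The fibrous sheath anchoring proteins AKAP3 and AKAP4 hold protein kinase A in the tail. AKAP3 had its promoter peak in replicate 1 alone, on chromosome 5 (65788591 to 65788976), with a fold of 4.63 and 13 fragments (6.92 to 22.2). Its summit was 115 bp downstream of the TSS, and the peak also covered the edge of NDUFA9, a gene of respiratory complex I whose edge lies 41 bp from AKAP3. In replicate 2 the nearest peak was 81.2 kb from AKAP3. Of the 1073 promoter peaks of replicate 1 with 12 to 14 fragments, 40.8% overlapped a replicate 2 peak, so most peaks of this height were found in 1 library only. AKAP4, on the X chromosome, was 271 and 272 kb from the nearest peak in replicates 1 and 2.

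**Figure D2:**
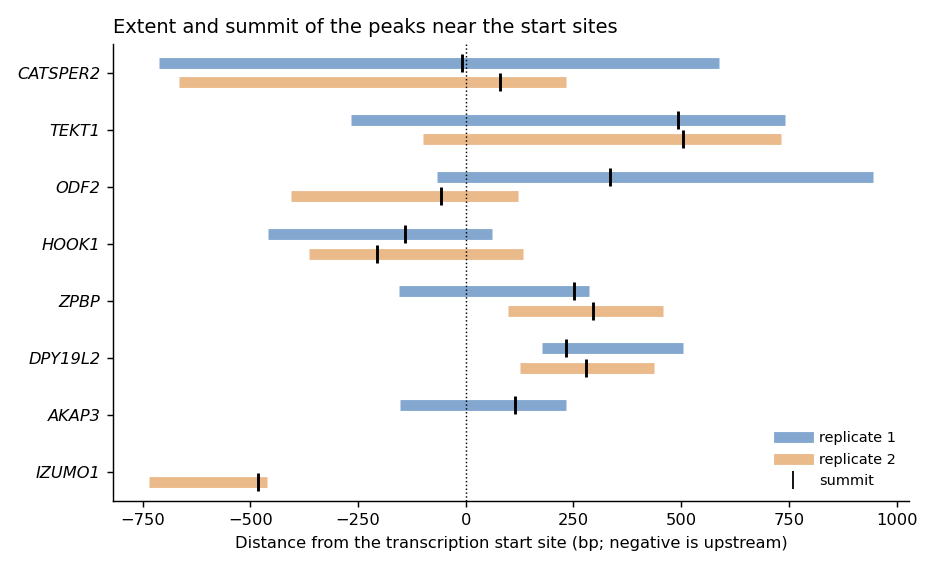
Extent (bars) and summit (black ticks) of the peaks at the 8 genes with a peak near the start site, in bp from the TSS the authors used for that peak, with replicate 1 in blue above replicate 2 in orange. At CATSPER2 the summits lie 9 bp upstream and 79 bp downstream of the TSS, while at TEKT1 they lie 494 and 504 bp downstream. The ODF2 bars use different start sites in the 2 libraries, which shifts them against each other.

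The sperm isozymes of glycolysis had no assigned peak in either library. GAPDHS, the glyceraldehyde-3-phosphate dehydrogenase of the fibrous sheath, lay 12.8 and 13 kb from the nearest peak in replicates 1 and 2, in an exon of ATP4A. PGK2, a phosphoglycerate kinase gene, was 214 kb from a peak in replicate 1 and 1621 kb in replicate 2. LDHC, the lactate dehydrogenase of germ cells, lies 4049 bp from its paralog LDHA on chromosome 2. In replicate 1, but not in replicate 2, LDHA had a promoter peak (fold 3.83, 14 fragments) and an intron 1 peak (fold 5.74, 22 fragments), and the nearer of these was 13.2 kb from LDHC. PGK1 was listed in replicate 1 alone, with a promoter peak of 4.44-fold on 10 fragments, and GAPDH and LDHB had no assigned peak. For these enzymes neither the germ cell gene nor the widely expressed one had a promoter peak in both libraries.

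Of the shaping and signalling genes, HOOK1 had a promoter peak in both libraries. HOOK1 links microtubules to their cargo and in mouse is needed for the manchette, the microtubule skirt that shapes the sperm head. Its peak on chromosome 6 had a fold of 5.93 and 21 fragments (13 to 32.1) in replicate 1 (152709361 to 152709880). In replicate 2 it had a fold of 5.05 and 15 fragments (8.4 to 24.7; 152709290 to 152709786). The peaks overlapped by 426 bp, and the summits lay 140 and 206 bp upstream of the TSS. Both peaks reached into LOC110261448, a long noncoding RNA gene whose edge lies 125 bp from HOOK1, and both summits lay inside that gene. Each peak was assigned to 1 gene, so the data do not divide this signal between HOOK1 and LOC110261448. HOOK2, a paralog of HOOK1, also had a promoter peak in both libraries, a weaker one (folds of 2.98 and 3), while HOOK3 had no assigned peak.

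The kinases TSSK2, TSSK3 and TSSK6 act in spermatids, and none had a promoter peak. TSSK3 was the gene assigned to a distal intergenic peak on chromosome 6, 9.64 kb upstream in replicate 1 (88799675 to 88800384) and 9.6 kb upstream in replicate 2 (88799675 to 88800421). The folds were 6.83 and 5.6, on 34 fragments (23.5 to 47.5) and 23 fragments (14.6 to 34.5), the most of any peak assigned to these genes in replicate 1. Of the 1228 distal peaks of replicate 1, 2.69% had as many fragments, and of the 747 of replicate 2, 5.49%. By fold the peak stood out less, with 5.29% of distal peaks as high in replicate 1 and 16.7% in replicate 2. TSSK3 overlaps FAM229A and BSDC1 in the gene table, and the files name only 1 gene per peak. TSSK6 had no assigned peak, but a promoter peak of NDUFA13 in replicate 1 only (fold 4.54, 17 fragments) ended 491 bp from it. At that height, 64.3% of the 1058 replicate 1 promoter peaks with 16 to 18 fragments overlapped a replicate 2 peak. TSSK2 was 6.94 and 7.07 kb from the DGCR2 promoter peaks of replicates 1 and 2. CRISP2, a cysteine-rich protein of the acrosome and tail, was 126 kb from a peak in replicate 1 and 1533 kb in replicate 2.

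The shared promoter peaks of the spermatid and sperm genes were near the middle of all such peaks in height. The folds of the 4 genes had a median of 6.34 in replicate 1 (5.08 to 6.9) and 5.85 in replicate 2 (5.05 to 8.45). Over the 3439 genes of the whole table that met the same rule the medians were 5.85 and 5.45. The summit fragments had medians of 23.5 and 17.5 at the 4 genes, against 22 and 17 over all such genes. The widths had medians of 1011 and 680 bp at the 4 genes, against 662 and 550 bp. In width, the peaks of CATSPER2 and TEKT1 were above the all-gene medians in both libraries, and that of ODF2 in replicate 1 only. The widths at HOOK1 (520 and 497 bp) were above neither. These 4 passed the authors' threshold to enter here, so the values describe them and not the whole set.

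**Figure D3:**
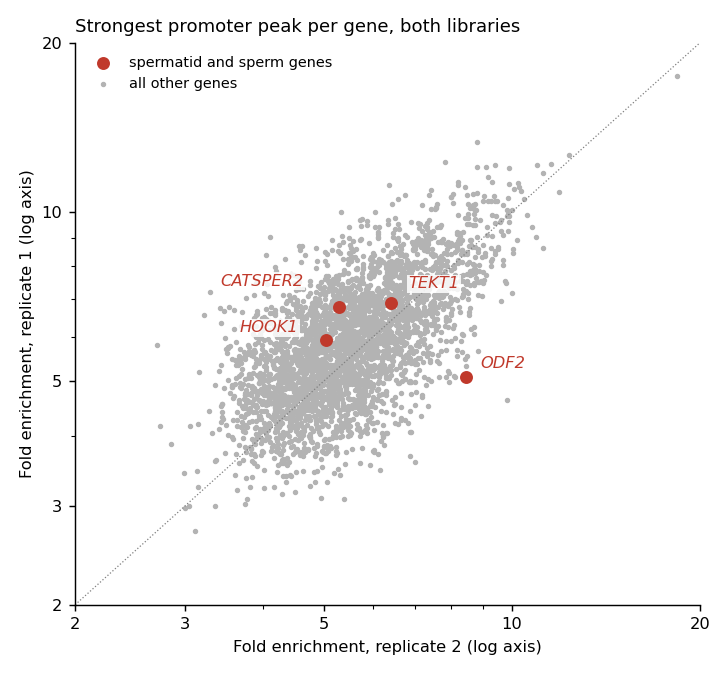
Fold enrichment of the strongest promoter peak per gene in replicate 1 (vertical axis) against replicate 2 (horizontal axis), both on log axes, for the 3439 genes with a promoter peak in both libraries. The 4 spermatid and sperm genes are in red. CATSPER2, TEKT1 and HOOK1 lie within the cloud, and ODF2 lies at its lower right edge with folds of 5.08 and 8.45.

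For the 24 genes with no assigned peak the nearest peak lay at a median of 68.5 kb in replicate 1 and 58.3 kb in replicate 2, against 29.1 and 44.6 kb over the 8017 protein-coding genes with no assigned peak that the gene table places on a nuclear chromosome. A peak of any gene within the gene or within 3 kb of it was found in both libraries for 6 of the 33 genes (against 36.1% of all genes). In at least 1 library it was found for 9 (against 58.2% of all genes). TSSK6 entered this last count without an assigned peak of its own, and TSSK3 dropped out of it. Within 1 kb of either gene end, 5 of the 33 had a peak of any gene in both libraries (against 29% of all genes).

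Further genes of sperm formation were listed by the same roles. Of 25 other flagellum genes in the gene table, 5 had a promoter peak in both libraries (20%, against 20.8% of all genes). They were led by CATSPERD, an auxiliary subunit of the CATSPER channel (8.79-fold in replicate 1 and 7.86-fold in replicate 2), FSIP1, a fibrous sheath-interacting protein (7.53-fold and 8.46-fold), and SPAG16, a protein of the central pair of microtubules (5.56-fold and 5.11-fold). CATSPERG, a second auxiliary subunit, had 5.05-fold and 6.74-fold. Among 19 other acrosome genes there was 1 (5.26%), GOPC, a Golgi protein that is widely expressed (6.32-fold and 5.74-fold). By any peak within 1 kb of either gene end in both libraries it was 4 of the 19, against 29% of all genes. Among 7 other genes of sperm energy metabolism none had a promoter peak in both libraries. ENO4, the enolase of the sperm tail, had one in replicate 1 alone (4.01-fold, 10 fragments). Of 5 other nuclear packaging genes, PYGO2 (6.04-fold and 5.55-fold) and RNF8 (5.24-fold and 4.7-fold) had one in both libraries (40%, against 20.8% of all genes). Both encode chromatin regulators that act in many cell types. With 5 genes in this list and 4 nuclear packaging genes among the 33, their shares are too coarse to be compared.

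Of 14 regulators of spermiogenesis, 5 had promoter peaks in both libraries (35.7%, against 20.8% of all genes). They were RFX2, a transcription factor of ciliated cells and spermatids (5.48-fold and 5.52-fold), CREM, the cyclic AMP-responsive activator of spermatid genes (6.72-fold and 4.84-fold), TBPL1, a relative of the TATA-binding protein (5.67-fold and 4.76-fold), RFX3 (8.71-fold and 4.61-fold) and MYBL1, a meiotic transcription factor (5.29-fold and 4.04-fold). Of the 27 meiotic genes found in the table, 3 had one (against 20.8% of all genes). They were MEIOB, a DNA-binding protein of meiotic recombination (7.18-fold and 6.66-fold), SYCE3, of the synaptonemal complex (4.96-fold and 5.12-fold), and MSH5, of crossover formation (6.65-fold and 4.85-fold). For the meiotic genes the side of the background depended on the rule. An assigned peak of any class within 1 kb of the TSS in both libraries was found for 5 (against 24.1% of all genes). Any peak within 1 kb of either gene end in both was found for 8 (against 29%). An assigned peak in at least 1 library was found for 15 (55.6%, against 50.7%). Of the 11 genes listed as widely expressed paralogs, 3 had a promoter peak in both libraries (27.3%, against 20.8% of all genes). They were DPY19L3 (5.68-fold and 5.65-fold), HYAL2 (4.6-fold and 3.95-fold) and HOOK2 (2.98-fold and 3-fold). By any peak within 1 kb of either gene end in both libraries it was 2 of the 11, against 29% of all genes. DPY19L4 had a promoter peak in replicate 1 alone (4.19-fold). DPY19L1 had no assigned peak, and neither had AKAP1, which was listed by its family name. These lists are short, and no difference between them was tested.

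**Figure D4:**
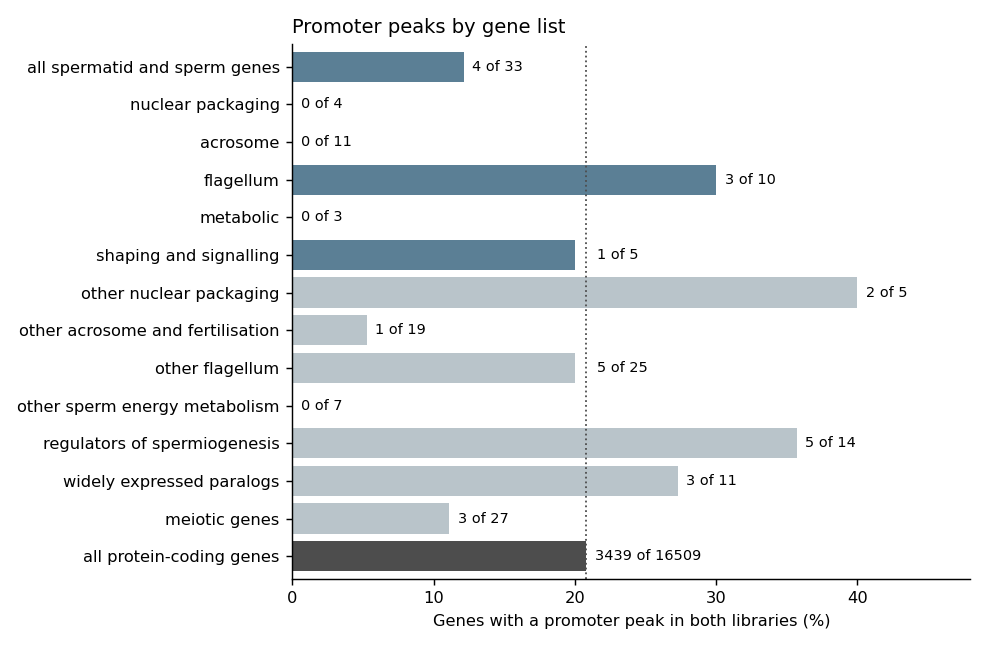
Share of genes with a promoter peak in both libraries (horizontal axis, percent) for the 33 spermatid and sperm genes and their roles (dark bars), for further lists (light bars) and for all protein-coding genes (bottom bar and dotted line, 20.8%), with the counts beside each bar. The flagellum reaches 3 of 10, while nuclear packaging, acrosome and metabolic genes are at 0.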

How the data were processed

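CUT&Tag peaks of ZBTB16 were deposited as 1 list for each library, with the build Sscrofa11.1 named in the submitters' processing notes. Neither the aligner nor the peak caller, its control or the annotation tool is named in the sources used here. An IgG control was not analysed here. Per the file headers, the authors gave each peak a linear fold enrichment (a ratio over background), a p-value and a q-value as −log10, a score that was not used further, a class, a gene and a distance to the TSS. The lowest −log10 q-value was 1.31 in both lists. The authors' promoter class ends at the TSS, so peaks that begin downstream of it are listed as 5′ UTR, exon or intron, and each peak has 1 gene.

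Summit fragments and background were recovered by taking the fold as (fragments + 1)/(background + 1) and the p-value as the upper tail of a Poisson distribution. A whole number of fragments gave the deposited p-value within a relative tolerance of 1e-05 for 100% of peaks. On 400 peaks simulated from replicate 1, 100% of counts were recovered. The lowest background was 1.21 fragments in replicate 1 and 0.979 in replicate 2, a ratio of 1.23. This stands in for relative depth only if each background came from its own library, which is not stated.

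Genes were the 16509 protein-coding symbols, LOC numbers left out, of the RefSeq table for Sscrofa11.1, matched by symbol, with chromosomes 19 and 20 of the files read as X and Y. The genes and lists were chosen with earlier results of these data known. Named are all spermatid and sperm genes, up to 4 bound genes of each further list by the lower fold, with MYBL1, ENO4 and the CATSPER, DPY19L and enzyme relatives as examples. Alternatives tried were overlap rules, gene ends, a narrower promoter, a stricter fold, lists of equal length and each library left out. The tools were scipy 1.17.1, pandas 2.3.3, numpy 2.4.6 and matplotlib 3.10.9 under Python 3.11.15.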

Additional observations from a re-analysis of the deposited data

How the results depend on the processing

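The count of 4 genes with promoter peaks in both libraries was also 4, with the same genes, for peaks at or above each library's median fold over all peaks, equal list lengths, a promoter of 1 kb, and peaks overlapping by at least 1 bp or by at least 50% of both. The all-peak medians were 4.98 in replicate 1 and 5 in replicate 2. ODF2 in replicate 1 (5.08) and HOOK1 in replicate 2 (5.05) were just above them. Both were below the promoter-peak medians of 5.33 and 5.25. The count was 5 by any peak within 1 kb of either gene end, a rule that uses both ends because the gene table gives no strand. Under this rule ZPBP and DPY19L2 entered and TEKT1 dropped out, which left 2 of 10 flagellum genes. With 1 library left out the count was 5 to 6. The count for the acrosome, 0 in the report, was 1 with either library left out (IZUMO1 without replicate 1, ZPBP without replicate 2) and 2 both by gene ends and by peaks of any class within 1 kb of the TSS. Genes with any assigned peak in both libraries, 7 in the report, were 6 with equal list lengths and with overlaps of at least 50% of both. ZPBP dropped out under each of these rules. They were 5 at or above the median fold, without ZPBP and DPY19L2, and 5 by gene ends, without TEKT1 and TSSK3. They were 7 with overlaps of at least 1 bp and 8 with 1 library left out. With peaks at or above the median fold only, genes with any assigned peak in at least 1 library were 5 in place of 9, and the share of all protein-coding genes meeting the promoter rule in both was 11.6%. That share was 24.9% to 32.8% with 1 library left out. The nuclear packaging and metabolic counts were 0 under every alternative run. Overlap rules could not be applied to peaks in at least 1 library, nor promoter rules to peaks of any class. No paired analysis was possible because both libraries belong to 1 group. A gene without a peak had none detectable at this depth.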
